A study of Mus musculus with 22 samples.

Results

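Cultured aortic smooth muscle cells that cannot make tenascin C were given exogenous tenascin C (TNC) alone, and their RNA was compared with that of cells given nothing. Members were chosen by the treatment label: 4 arrays labelled exogenous TNC and 3 arrays labelled none, 7 of the 22 arrays in all. All 7 hold RNA of suprarenal aortic smooth muscle cells (ASMCs) of male C57BL/6 mice with the TNC-KO genotype, so the control cells lack the gene too. The cells had been freed from the vessel by enzymes and grown in Dulbecco's modified Eagle medium with fetal bovine serum. TNC was added at 10 µg/mL. The design text states 3 independent cultures without TNC and 4 with it. It does not say how many mice the cultures came from or how long TNC was present, nor the age of the mice. Another 3 arrays hold the same cells, which were given TNF-alpha at 10 ng/mL for 24 h (TNF below) with no TNC. They are used for 1 comparison. The titles of the TNC arrays read "TNC or TNF", and the source text of every cell array names TNF-alpha, the unstimulated ones included, with an hour count that differs from array to array. The treatment label was therefore followed, and the 24 h is that of the design text.

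Tenascin C, an extracellular matrix glycoprotein, is assembled from arms joined at their ends. Healthy adult arteries hold little of it, and it appears at sites of injury, inflammation and mechanical load. It binds fibronectin, syndecan-4 and several integrins, and its fibrinogen-like end has been described as an activator of the pattern receptor Tlr4. Medial smooth muscle cells hold the contractile apparatus and the elastic fibres of the aorta, and in culture they can lose contractile proteins and make cytokines, proteases and new matrix instead.

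Values are deposited signals on a linear scale and are listed in replicate order, and a group mean is the geometric mean. A change is the log2 signal with TNC minus the log2 signal without it, with the standard error (SE) of the limma fit and a Benjamini-Hochberg adjusted p over all 15636 genes tested. Genes with an adjusted p under 0.05 were called. The comparison called 4926 genes, 31.5% of those tested. Of these 2498 (16%) were higher and 2428 (15.5%) lower with TNC, and the median change of all tested genes was -0.033. The list counts below are to be read beside these shares. With each array centred on its own median, which moves the median change by 0.172, 3977 were higher and 1238 lower, so 76.3% of calls were higher in place of 50.7%. At least a 2-fold change was met by 461 called rises (2.95%) and 543 called falls (3.47%). Arrays of the 2 groups did not overlap for 40.5% of genes. Correlations between arrays of a group were 0.9685 to 0.9694 without and 0.9665 to 0.9692 with TNC.

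Tnc itself was checked first. Its brighter probe set read 122, 144 and 100.4 in the unstimulated arrays and 128, 90.6, 107 and 133 in the TNC arrays (log2 change -0.094, SE 0.15, adjusted p = 0.683). The 8 aortic tissue arrays of the series were pools of RNA from untreated mice or from mice given calcium chloride and angiotensin II. Untreated and treated pools together read 1805 to 2699 for wild type and 257.5 to 488.7 for knockout, so every cell array lay below the lowest knockout pool. Whether this probe set lies in the deleted stretch is not given in the sources used here. A second Tnc probe set read 9.60 or less in all 7 arrays. Added protein carries no Tnc RNA, and these probe sets do not measure it.

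The cells expressed smooth muscle genes: 8 of 8 markers lay above the array's 30th percentile on every one of the 7 arrays, with a summed signal of 51910 to 55120 without TNC and 39340 to 41790 with it. Endothelial markers were present as well. Their summed signal was 7791 to 8431 without and 10050 to 11460 with TNC, and 4 of 8 tested members were called higher, with Pecam1 at a mean of 3216 and 4618 and Vwf at 1207 and 1836. Fibroblast markers summed to 10420 to 11410 without and 25240 to 27580 with TNC, led by Dcn. Macrophage markers summed to 741.3 to 1177 and 927.1 to 1188, with Itgam and Cd163 below the 30th percentile in all 7 arrays, and lymphocyte markers to 184.6 to 244.0 and 98.6 to 196.9, with Cd3e, Cd4 and Cd79a below it. Neutrophil markers summed to 124.2 to 165.3 without and 488 to 703.6 with TNC. Of these S100a8, near background without TNC, was at least 9.59-fold higher and Camp rose from 16.5 to 265, while S100a9 and Cxcr2 lay below the 30th percentile in all 7. Adipocyte markers summed to 5233 to 7185 and 6861 to 8459, nearly all of it Fabp4, which was not called (means of 6263 and 7375), while Adipoq fell from 162 to 24.7. No marker was at 0. The part of other cell types in the results below was not tested, and in these bulk samples fewer cells of a type and less RNA per cell cannot be told apart.

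The largest rises included many secreted proteins of inflammation. The promoters of 5 genes that rose are shown because each holds a match to the binding motif of a factor family that the results below return to. Of these Il6, Lcn2 and Saa3 are among the 20 largest rises, and Cxcl1 and Cxcl2 are not. Each line is the 250 bases before the RefSeq start site in GRCm38.p6, 5′ to 3′ on the gene's strand. Capitals mark the match: GGGA, any base and TTTCC for NF-kB (the kB motif), or TTGC, any 2 bases and AA, a relaxed form of the C/EBP motif, each searched on both strands. In the Il6 promoter the C/EBP match lies apart from the kB match.
Cxcl1 (chr5:90890995-90891244, plus strand): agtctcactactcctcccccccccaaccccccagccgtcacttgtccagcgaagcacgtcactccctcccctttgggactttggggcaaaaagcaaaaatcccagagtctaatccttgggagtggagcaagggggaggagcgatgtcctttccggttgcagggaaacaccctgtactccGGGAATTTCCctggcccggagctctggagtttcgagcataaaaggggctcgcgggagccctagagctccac
Cxcl2 (chr5:90903649-90903898, plus strand): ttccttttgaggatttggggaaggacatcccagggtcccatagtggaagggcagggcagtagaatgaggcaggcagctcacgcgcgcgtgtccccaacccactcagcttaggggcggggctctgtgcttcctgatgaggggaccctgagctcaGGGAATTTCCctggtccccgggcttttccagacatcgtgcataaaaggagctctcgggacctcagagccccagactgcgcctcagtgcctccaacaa
Il6 (chr5:30012864-30013113, plus strand): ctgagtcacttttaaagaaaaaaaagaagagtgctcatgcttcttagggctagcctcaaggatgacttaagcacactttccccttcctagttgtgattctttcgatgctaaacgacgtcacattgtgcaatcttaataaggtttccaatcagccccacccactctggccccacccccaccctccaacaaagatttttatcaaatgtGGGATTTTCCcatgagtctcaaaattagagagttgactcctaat
Lcn2 (chr2:32387740-32387989, minus strand): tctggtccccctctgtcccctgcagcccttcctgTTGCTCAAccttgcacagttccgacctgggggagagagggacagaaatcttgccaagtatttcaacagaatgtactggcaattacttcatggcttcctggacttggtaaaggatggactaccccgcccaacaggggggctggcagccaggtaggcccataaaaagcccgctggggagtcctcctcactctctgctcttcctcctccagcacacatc
Saa3 (chr7:46715677-46715926, minus strand): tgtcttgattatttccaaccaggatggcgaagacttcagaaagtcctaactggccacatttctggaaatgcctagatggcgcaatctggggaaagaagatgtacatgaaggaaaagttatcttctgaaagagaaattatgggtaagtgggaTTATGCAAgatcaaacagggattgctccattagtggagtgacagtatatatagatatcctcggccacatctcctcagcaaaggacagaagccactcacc
The kB match ended 62 bases before the start site of Cxcl1, 88 before that of Cxcl2 and 35 before that of Il6. In windows that also hold 50 bases after the start, the kB motif was found in 135 of 32851 RefSeq promoters, 0.411%. It was found in 1 of the 12 genes with a promoter on hand among the 20 largest rises (Il6) and in 2 of 17 such genes of the NF-kB list (Nfkbia and Nfkb2). A gene was counted if any of its promoters matched, and not every Nfkb2 promoter did. The shares of all promoters count each promoter singly, so the 2 kinds of count are in unlike units. The C/EBP letters occur in 10.8% of all promoters. They were in 5 of those 12 (Il6, Lcn2, Mmp3, Saa3 and Vnn3) and in 0 of the 17. The 5 were picked for their matches, and a match is a description of letters.

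Neutrophil-attracting chemokines were among the strongest responses. Cxcl1, which binds the neutrophil receptor Cxcr2, read 2481, 2839 and 2775 in unstimulated arrays and 25770.2, 28160.1, 27820.1 and 25699 with TNC (log2 change 3.32, SE 0.069, adjusted p = 5.80e-11). Cxcl2, its close relative, read 1752, 1697 and 1752 without and 19340.2, 23815, 21849 and 22261 with TNC (log2 change 3.65, SE 0.076, adjusted p = 5.80e-11). All 4 TNC arrays lay far above the 3 controls for both genes. Cxcl5 read 11.4, 12.9 and 10.8 without and 1035, 1124, 707 and 1218 with TNC, at least 44.2-fold higher because the control arrays lay near background (log2 change 6.42, SE 0.19, adjusted p = 1.22e-09). Of 6 tested members 4 rose and 1, Cxcl15 (lungkine), fell (log2 change -0.96, SE 0.17, adjusted p = 0.00112). Here and below, "at least" sets the group near background at the 30th percentile of each array.

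Monocyte-attracting CC chemokines rose with them. Ccl2, the main ligand of the monocyte receptor Ccr2, read 908, 751 and 831 without TNC and 14500.2, 18232, 16658 and 15019 with it (log2 change 4.28, SE 0.10, adjusted p = 2.03e-10). Ccl7, which binds the same receptor, read 82.0, 147 and 177 and then 6179.6, 8051, 8012 and 6071 (log2 change 5.77, SE 0.21, adjusted p = 5.80e-09). Ccl5, which attracts T cells and monocytes, read 85.6, 4.94 and 80.9 without TNC and 4453, 4785, 4652 and 4272 with TNC (log2 change 7.13, SE 0.76, adjusted p = 3.45e-05). No TNC array overlapped a control array for these 3 genes. In the list of CC chemokines 8 of 16 tested genes rose, 0 fell, and the median was 0.49. Ccl8 went from a mean of 67.2 to 2143 and Ccl9 from 903 to 7782. The interferon-driven Cxcl10 stood apart, with 108, 64.1 and 58.1 in unstimulated and 42.0, 67.7, 38.6 and 32.0 in TNC arrays (log2 change -0.77, SE 0.30, adjusted p = 0.0741; adjusted p = 0.0237 without TNC array 2). The limma fit also called Cxcl10 lower with a filter at the 50th percentile (adjusted p = 0.0488), a variance trend (0.028) or array weights (0.0395). The 2 groups overlapped for Cxcl10, and the TNF arrays read 11209, 12561 and 12478.

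Interleukin-6 rose too, and so did some receptor chains of its family. Il6, a cytokine that drives acute phase and B cell responses, read 552, 435 and 412 without TNC and 9276, 12033, 13195 and 11218 with TNC (log2 change 4.62, SE 0.14, adjusted p = 1.22e-09). Lif, a second ligand of the family, rose from 73.1 to 323 (log2 change 2.14). The shared receptor chain Il6st rose from 4578 to 11044 and Osmr, which pairs with it, from 4804 to 12479, while Lifr fell from 3527 to 2108. Socs3, the feedback inhibitor of this signal, read 844, 741 and 735 without and 3433, 3480.3, 3986 and 3464 with TNC (log2 change 2.22, SE 0.12, adjusted p = 1.74e-07). Of 12 tested family members 7 rose and 3 fell.

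Csf3, the granulocyte colony-stimulating factor, read 8.998, 17.5 and 18.6 without TNC and 414, 411, 517 and 406 with TNC (log2 change 4.93, SE 0.52, adjusted p = 3.31e-05). Its control arrays were near background, so it was at least 19.2-fold higher, and no arrays overlapped. Csf2, the granulocyte-macrophage factor, was at least 2.71-fold higher on the same footing, and Csf1, the macrophage factor, rose from 3827 to 6654. These were 3 rises among 8 tested members, and the 4 tested receptors of the list were not called. In the interleukin-1 family 4 of 8 tested genes rose and 1 fell, with 2 rises in place of 4 without unstimulated array 3, TNC array 1 or TNC array 3. Il18bp, the decoy that traps interleukin-18, rose from 61.3 to 139 and the receptor chain Il1rap from 293 to 514, while the ligand Il18 fell from 251 to 159.5. Il1b, with 57.2, 68.1 and 31.3 without and 75.6, 68.7, 83.7 and 70.3 with TNC, did not pass the test (log2 change 0.58, SE 0.33, adjusted p = 0.209).

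The NF-kB system, transcription factors of inflammation with the inhibitors and targets that regulate them, rose almost as a whole: 19 of 20 tested members were called higher and 0 lower, with a median change of 1.33. Nfkbiz, a nuclear cofactor that macrophages need to express Il6 and Lcn2, read 654, 703 and 643 without TNC and 5657, 5272, 6386 and 6967 with TNC (log2 change 3.18, SE 0.10, adjusted p = 1.38e-09). Map3k8, a kinase upstream of ERK, read 42.5, 52.0 and 43.9 and then 879, 692, 809 and 823 (log2 change 4.12, SE 0.14, adjusted p = 3.03e-09). Zc3h12a, an RNase that degrades cytokine transcripts, read 74.3, 73.2 and 57.5 without and 788, 722, 781 and 775 with TNC (log2 change 3.50, SE 0.14, adjusted p = 1.16e-08). The arrays of the groups were apart for each of the 3. Nfkbia, the inhibitor that returns NF-kB to the cytoplasm, rose from 5849.6 to 14821, a log2 change of 1.34 (SE 0.069, adjusted p = 8.62e-08), Tnfaip3, the A20 deubiquitinase that ends the signal, from 697 to 1833, and Birc3, a ubiquitin ligase of the TNF receptor complex, from 556 to 2601. Relb rose from 269.9 to 1021 and Rela from 2294 to 3076 (log2 change 0.42).

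Genes that sense bacterial products rose in 11 of 18 cases. Lbp, which carries lipopolysaccharide, read 65.6, 66.8 and 57.6 without TNC and 6744, 7095, 6259 and 6758 with TNC (log2 change 6.73, SE 0.091, adjusted p = 1.30e-12). Cd14, the co-receptor that hands it to Tlr4, read 135, 126 and 93.7 without and 1060.2, 1451, 1957 and 1262 with TNC (log2 change 3.58, SE 0.20, adjusted p = 1.56e-07). Tlr2 rose from 321 to 2046, Tlr4 from 960.3 to 1608, a log2 change of 0.74 (SE 0.059, adjusted p = 3.31e-06) and its partner Ly96 from 1020.3 to 1435. The labels give neither the source of the TNC nor a test of it for endotoxin, and no group given the carrier alone was analysed here. In this and every other result, the effect of TNC cannot be told apart from that of anything else in its preparation.

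**Figure D1:**
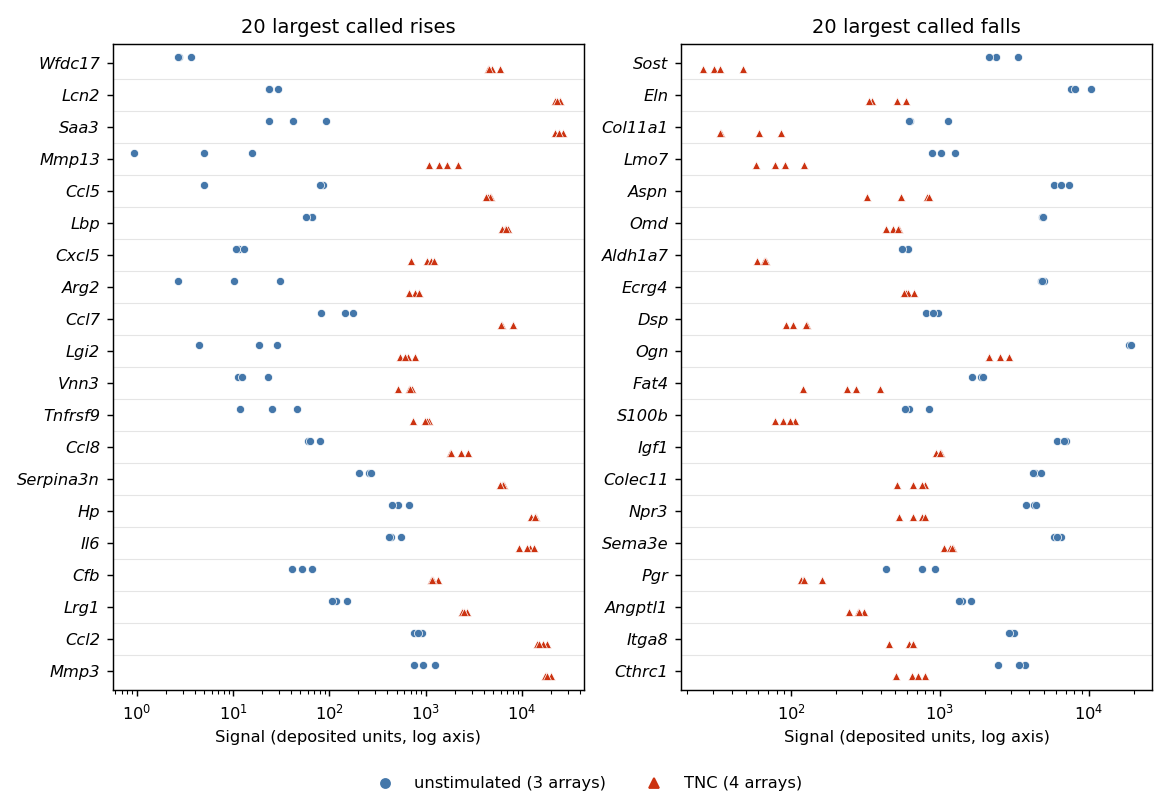
Signal on a log axis in each of the 3 unstimulated (circles) and 4 TNC arrays (triangles) for the 20 largest called rises (left) and 20 largest called falls (right) among genes with a group mean of at least 500. Each mark is 1 array. The groups do not overlap for any gene shown, which the choice of genes required, and Lcn2 and Saa3 go from a mean of 25.2 and 45.1 to 23674 and 24161.

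The acute phase list, built around proteins that the liver and inflamed tissues secrete, had the highest median among lists with at least 10 tested genes. In it 16 of 19 tested genes rose, 0 fell, and the median change was 2.36. The lists were chosen with earlier results of these data known, so this rank is a description. Wfdc17, a small secreted protein with a whey acidic protein domain, read 2.72, 3.66 and 2.68 without TNC and 5983, 4428, 4891 and 4544 with TNC, at least 218-fold higher (log2 change 10.69, SE 0.15, adjusted p = 1.30e-12). Lcn2, which starves bacteria of siderophore iron, read 29.0, 23.4 and 23.7 without TNC and 21868, 25021, 24803 and 23146 with TNC (log2 change 9.87, SE 0.12, adjusted p = 9.84e-13). Saa3, a serum amyloid A made outside the liver, read 23.5, 42.1 and 92.8 without and 22028, 24009, 26455 and 24354 with TNC (log2 change 9.06, SE 0.35, adjusted p = 8.76e-09). For these 3 genes every TNC array was more than an order of magnitude above every control. The haemoglobin binder Hp rose from 538 to 13364, the copper oxidase Cp from 1398 to 19184 and the protease inhibitor Serpina3n from 242 to 6302. The factors of the C/EBP family that control acute phase genes in the liver rose too: Cebpd read 3401, 3263 and 3412 without and 12243, 13019, 13626 and 13128 with TNC (log2 change 1.95, SE 0.045, adjusted p = 1.50e-10), and Cebpb rose from 5321 to 13411. The bright probe set of Ptx3 rose from 3029 to 15523, while a dimmer one was called lower with a log2 change of -0.84, so the probe sets of this gene disagree.

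Complement genes split. The alternative pathway protease Cfb read 65.7, 41.0 and 52.2 without TNC and 1346, 1143, 1193 and 1175 with TNC (log2 change 4.54, SE 0.14, adjusted p = 1.34e-09). C1ra and C1s1, the proteases of the first component, rose from 1718 to 5636 and 2624 to 7658, as did their inhibitor Serping1 (955 to 4271). Masp1, the protease of the lectin pathway, fell from 2826 to 1719, and so did Colec11, a lectin of that pathway, which read 4341, 4234 and 4796 without and 799, 516, 658 and 758 with TNC (log2 change -2.72, SE 0.14, adjusted p = 8.96e-08). In all 7 of 16 tested complement genes rose and 3 fell.

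Matrix-degrading enzymes gave some of the widest changes. Mmp3, stromelysin, which cleaves proteoglycans and activates other proteases, read 755, 1244 and 944 without TNC and 17882, 20136, 17533 and 18160.2 with TNC (log2 change 4.26, SE 0.14, adjusted p = 2.65e-09). Mmp13, the rodent interstitial collagenase, read 4.97, 15.7 and 0.939 without and 1388, 1079.9, 1660.2 and 2194 with TNC, at least 67.6-fold higher (log2 change 8.51, SE 0.68, adjusted p = 3.70e-06). Every TNC array was above every control for both. Mmp11 rose from 1696 to 4167 and Mmp14, the membrane-bound activator of Mmp2, from 8364 to 11149, while Mmp2 itself read 6827, 6786 and 7272 without and 7104, 7238, 7267 and 6859.5 with TNC (log2 change 0.032, SE 0.057, adjusted p = 0.72).

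The inhibitors of these enzymes moved in opposite directions. Timp1 read 4886, 4181 and 4212 without TNC and 18098, 18767, 19852 and 18675 with TNC (log2 change 2.09, SE 0.072, adjusted p = 3.20e-09). Timp3, the inhibitor that stays bound to the matrix, read 15836, 14220.1 and 15303 without and 4025, 3885, 4741 and 4131 with TNC (log2 change -1.85, SE 0.13, adjusted p = 1.10e-06). Neither overlapped between groups, and the other 3 Timp3 probe sets fell by 1.94 to 2.89 on the log2 scale. The membrane-anchored inhibitor Reck fell from 12653 to 8709. Over the whole list 5 of 20 rose and 4 fell (6 and 3 with centred arrays), against 16% and 15.5% of all genes. Among ADAM and ADAMTS proteases 7 of 19 rose, including the aggrecanase Adamts4 (166 to 315), and 4 fell, including Adamts15 (196 to 60.2). Cathepsins, proteases of the lysosome, rose in 9 of 14 cases and fell in 0 (1 without unstimulated array 1 or TNC array 2), by small amounts: the collagenase Ctsk went from 1947 to 2936 and Ctsb from 10517 to 14293. In the plasminogen and coagulation list 9 of 18 fell and 3 rose (5 and 4 with arrays centred on their medians). Anxa2 and S100a10, which together hold plasminogen activator at the cell surface, fell from 13921 to 9196 and 5851 to 3276, and Plaur rose from 547 to 882.

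Elastin fell more than any other matrix gene of the lists. Eln, the core of the elastic fibre, read 10434, 7664 and 8048 without TNC and 351, 336, 589 and 512 with TNC (log2 change -4.31, SE 0.23, adjusted p = 1.28e-07), and a second probe set fell by 5.10 on the log2 scale. The highest TNC array lay far below the lowest control. Among the proteins that organise the fibre, Ltbp1 read 4925, 3566 and 3887 without and 1158, 1041, 2157 and 1479.7 with TNC (log2 change -1.54, SE 0.26, adjusted p = 8.72e-04), and Mfap5 fell from 7721 to 4799.6. Ltbp2 rose from 2898 to 9196, and Fbln1 from 99.98 to 482. The crosslinking enzyme Lox, with 19510.2, 18229 and 19420.3 without and 17938, 18737, 18996 and 17559.8 with TNC, was not called (log2 change -0.058, SE 0.059, adjusted p = 0.509). Of 18 elastic fibre genes 3 rose and 6 fell (4 and 4 with centred arrays), against 16% and 15.5% of all genes.

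The major fibrillar collagens were not called. Col1a2, a chain of the main arterial collagen, read 21404, 20619 and 21878 without TNC and 21815, 24983, 24034 and 21414 with TNC, and Col3a1 read 20856, 19788 and 20408 and 18271, 21022, 21771 and 19763. The groups overlapped for both, and neither was called, though Col1a2 was higher with centred arrays (log2 change 0.28, adjusted p = 0.0409). Both, like Lox, read high on arrays whose largest values are 26910 to 31630, and whether changes are compressed there was not tested. Col11a1, a minor fibrillar chain known from cartilage, was the exception, with 1127, 629 and 617 without and 33.9, 33.5, 85.9 and 61.0 with TNC (log2 change -3.94, SE 0.38, adjusted p = 1.76e-05). The prolyl hydroxylase P4ha2 rose from 2339 to 4155 and the lysyl hydroxylase Plod2 fell from 9610.3 to 6516. Among fibrillar collagens and their enzymes 5 of 16 rose and 4 fell (6 and 3 with centred arrays). Among other collagens 5 of 9 fell and 0 rose (2 and 0 with centred arrays, 3 and 0 without unstimulated array 1), led by Col10a1 (1149 to 263).

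In the basement membrane list 9 of 21 fell and 5 rose (7 and 6 with centred arrays). The chains Col4a3 and Col4a4, which assemble with Col4a5, fell from 203 to 33.7 and 287 to 30.3, and Lama2, a laminin chain of muscle, from 283 to 81.4. Lamb1 rose from 4111 to 6114, and Hspg2, the proteoglycan perlecan, from 935 to 1386.

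Small leucine-rich proteoglycans, which coat collagen fibrils, changed strongly and in both directions. Ogn read 18961, 18636 and 19247 without TNC and 2153, 2136, 2548 and 2913 with TNC (log2 change -2.97, SE 0.15, adjusted p = 7.01e-08). Aspn read 5829, 7383 and 6558 without and 549, 325, 820.0 and 848 with TNC (log2 change -3.47, SE 0.36, adjusted p = 2.86e-05). Omd read 4922, 4844 and 4936 without and 487, 433, 528 and 525 with TNC (log2 change -3.32, SE 0.091, adjusted p = 6.22e-10). For these 3 genes even the highest TNC array was a small fraction of the lowest control. Dcn, decorin, moved the other way, from 6001, 7293 and 7252 to 18485, 19479.9, 17656 and 19209 (log2 change 1.45, SE 0.068, adjusted p = 4.34e-08), and Lum, lumican, rose from 391 to 1239. Biglycan, Bgn, had means of 23359.7 and 25598, also near the top of the arrays, and was not called. Of the wider matricellular list 5 of 28 rose and 8 fell (7 and 6 with centred arrays), against 16% and 15.5% of all genes. Postn, a matrix protein of healing tissue, rose from 11449 to 16285, and Ccn3 fell from 7561 to 3749.

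**Figure D2:**
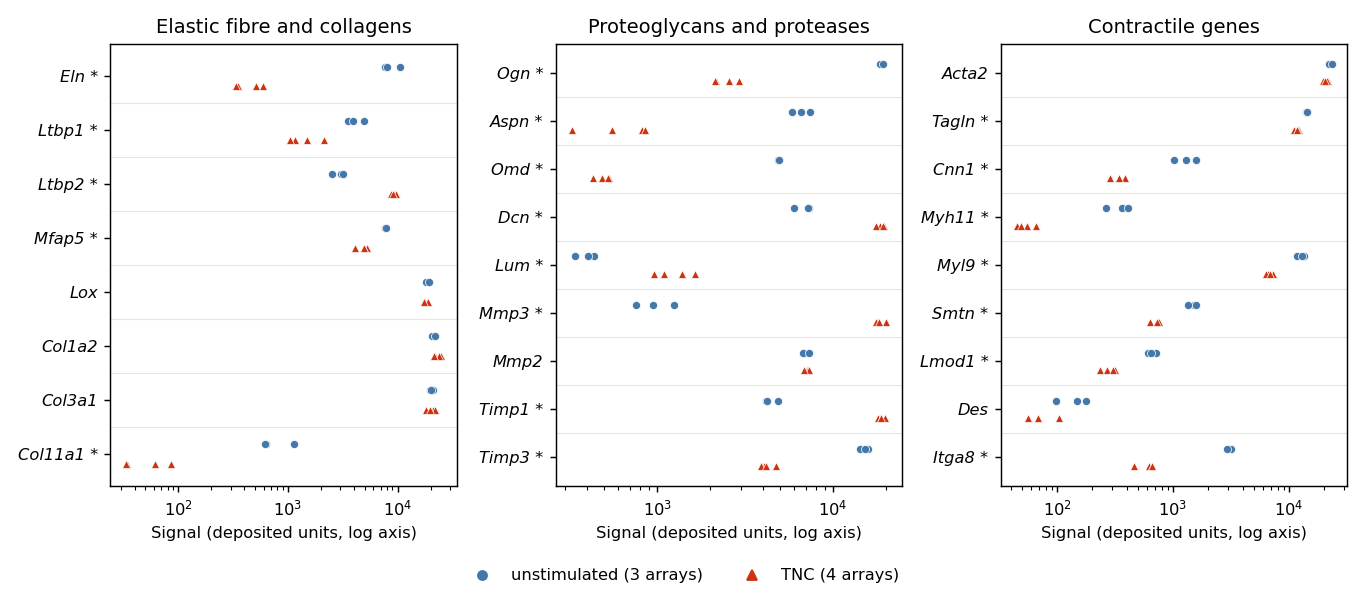
Signal on a log axis in each unstimulated (circles) and TNC array (triangles) for genes of the elastic fibre, collagen, proteoglycan, protease and contractile lists named in the text. Each mark is 1 array and asterisks mark genes called at an adjusted p under 0.05. Eln, Ogn and Timp3 lie lower with TNC while the arrays of the 2 groups overlap for Col1a2, Col3a1 and Lox.

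The list of tenascins and tenascin C receptors gave 3 rises and 6 falls among 19 tested genes (4 and 5 with centred arrays). Of all genes 16% rose and 15.5% fell. Itga8, an integrin chain of smooth muscle that binds tenascin C, read 3039.7, 3146 and 2915 without TNC and 620.2, 458, 662 and 658 with TNC (log2 change -2.35, SE 0.12, adjusted p = 6.49e-08). Sdc4, syndecan-4, read 5015, 4805 and 4607 without and 8063, 8513, 8707 and 8537 with TNC (log2 change 0.81, SE 0.10, adjusted p = 8.43e-05). Itgb3 rose from 548 to 762, a log2 change of 0.48 (SE 0.14, adjusted p = 0.0216), a call lost without unstimulated array 1 (adjusted p = 0.0738), unstimulated array 2 (0.0580) or TNC array 1 (0.0532). Itga9 fell from 237 to 164, and Itgav, with 9734 and 8710.0, was not called. Some alternatives called Itgav lower, among them quantile normalization (log2 change -0.19, adjusted p = 0.0489) and a variance trend in the limma fit (-0.16, adjusted p = 0.0355). With centred arrays its log2 change was 0.012 and it was not called. Ptprz1 and Cspg4, surface proteins that bind it, fell from 1064 to 644 and 776 to 403. The relatives Tnn and Tnxb were not called, and Tnxb was dim, with means of 86.4 and 79.1. Fn1, fibronectin, had means of 20017 and 22418, also high on the arrays, and was not called.

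Contractile genes were lower in 17 of 25 cases and higher in 0, with a median change of -0.73 (13 lower and 0 higher, median -0.55, with centred arrays). Cnn1, calponin, read 1572, 1022 and 1292 without TNC and 388, 343, 285 and 345 with TNC (log2 change -1.92, SE 0.38, adjusted p = 0.00291). Myh11, the smooth muscle myosin heavy chain, read 366, 266 and 407 without and 45.0, 55.3, 49.2 and 65.8 with TNC (log2 change -2.68, SE 0.20, adjusted p = 2.04e-06). Myl9, its regulatory light chain, read 13449, 11787 and 12886 without and 7246, 6558, 6272 and 6810.2 with TNC (log2 change -0.92, SE 0.082, adjusted p = 8.59e-06). The TNC arrays were lower in every case, with no overlap.

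By the probe sets used, the actin and SM22 genes, both defining markers, changed little. Acta2 reads high on arrays whose largest values are 26910 to 31630, and whether changes are compressed there was not tested. Acta2, smooth muscle actin, read 23241, 22235 and 23322 without TNC and 19606, 21644, 21326 and 20496 with TNC (log2 change -0.14, SE 0.056, adjusted p = 0.0735). Tagln, the actin binder SM22, read 14105, 14268 and 14240.1 and then 10926, 12256, 11984 and 11669.7 (log2 change -0.28, SE 0.069, adjusted p = 0.0093). With quantile normalization Acta2 was called lower (log2 change -0.22). The limma fit also called it lower with a variance trend (adjusted p = 0.042), that trend and a robust fit (0.0306) or array weights (0.0361). With centred arrays Acta2 had a log2 change of 0.028 and Tagln lost its call (adjusted p = 0.462). A dimmer Acta2 probe set fell from 588.5 to 168.8, so the probe sets of Acta2 differ in size of change. Lmod1, which seeds actin filaments, fell from 651 to 279.8, Smtn, smoothelin, from 1475 to 718, the kinase Mylk from 648 to 382, Tpm2 from 10304 to 6148, Vcl from 13787 to 8336, Synpo2 from 224 to 68.9, and Cav1, the coat protein of caveolae, from 16618 to 5070.2. Des, desmin, was dim, with 177, 149 and 98.1 without and 68.3, 56.2, 103 and 67.9 with TNC, and was not called (log2 change -0.93, SE 0.49, adjusted p = 0.176). Cald1 (18203 and 17543), Flna (6694 and 6042), Myl6 (664 and 574) and Hspb8 (1665 and 1538) were not called either. Dimmer Cald1 probe sets were called lower (9282 to 6487 and 9647 to 8222) and the dimmest were not, so the probe sets of Cald1 disagree.

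The regulators of the contractile state changed in part. Myocd, the coactivator that sets the smooth muscle programme, read 71.7, 45.1 and 59.1 without TNC and 1.53, 32.8, 30.8 and 26.7 with TNC, and was not called (log2 change -2.01, SE 1.22, adjusted p = 0.243). Its arrays did not overlap between the groups. With 32 added to each value before the log, Myocd was called lower (log2 change -0.76, adjusted p = 0.034 in the limma fit). Klf4, which opposes contractile genes, rose from 1707 to 2661, a log2 change of 0.64 (SE 0.11, adjusted p = 0.00122), and Klf9 rose from 5247 to 10294. Twist1 fell from 1749 to 1020.2. Of 21 tested regulators 5 rose and 4 fell (5 and 1 with centred arrays, 3 and 3 without unstimulated array 1, 3 and 4 without unstimulated array 2). Genes of vasoactive signals split, with 7 of 20 higher and 7 lower. Gucy1a1 and Gucy1b1, the subunits of the nitric oxide receptor, fell from 1219 to 260.4 and 724 to 233, and Rgs4 and Rgs5, brakes on G protein signals, from 2144 to 784 and 21559 to 11770.4. Rgs2 rose from 568 to 1304, and Rgs16 from 98.7 to 759. Npr3, the clearance receptor of natriuretic peptides, read 4303, 4429 and 3799.5 without and 661, 532, 764 and 789 with TNC (log2 change -2.62, SE 0.18, adjusted p = 1.05e-06), while the vasoconstrictor Edn1 rose from 3860.2 to 6762.

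Some genes of the Wnt, Notch and bone lists fell strongly. Sost, sclerostin, the Wnt antagonist of osteocytes and smooth muscle, had the largest called fall among genes with a group mean of at least 500: it read 2399, 3369 and 2144 without TNC and 30.3, 25.5, 47.8 and 33.4 with TNC (log2 change -6.28, SE 0.37, adjusted p = 2.94e-07). Sfrp2, another secreted Wnt modulator, read 15369.7, 15615 and 15794 without and 3566, 3677, 3655 and 4053 with TNC (log2 change -2.06, SE 0.11, adjusted p = 8.76e-08), while Sfrp1 rose from 7816 to 13838. Hey2, a Notch target of arterial cells, read 1485, 1822 and 1441 without and 404, 459, 457 and 450.2 with TNC (log2 change -1.83, SE 0.13, adjusted p = 1.11e-06). None of the 3 falls had overlapping arrays. Hey1 and Heyl fell from 916 to 339 and 361 to 99.6. In the Notch list 6 of 14 genes fell and 1 rose (5 and 3 with centred arrays). In the Wnt list 7 of 24 fell and 2 rose (5 and 3 with centred arrays). Of 19 genes linked to cartilage and bone 8 fell, including the cartilage factor Sox9 (784 to 311) and the osteoclast brake Tnfrsf11b (9215 to 3364), and the osteoclast ligand Tnfsf11 was the 1 rise, at least 6.06-fold from near background.

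Growth factor genes moved both ways. Igf1 read 7074, 6164 and 6818 without TNC and 948, 1002, 1012 and 1007 with TNC (log2 change -2.75, SE 0.21, adjusted p = 2.39e-06), and its binding protein Igfbp2 fell from 5391 to 2345. Vegfd fell from 4099.6 to 1023, Angpt1, a stabiliser of vessels, from 245 to 63.9, and Pdgfc from 4096 to 2477. Angptl4, an inhibitor of lipoprotein lipase, read 340.3, 448 and 437 without and 3316, 3046, 3078 and 3487 with TNC (log2 change 2.99, SE 0.10, adjusted p = 2.13e-09), and Hgf and Fgf7 rose from 120.2 to 416 and 2349 to 4580.2. Over the list 6 of 33 rose and 12 fell (8 and 10 with centred arrays), against 16% and 15.5% of all genes.

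In the TGF-beta and BMP list 10 of 29 rose and 8 fell (11 and 6 with centred arrays). The ligand Tgfb3 read 3771, 3448 and 3454 without TNC and 1120.5, 928, 1104 and 1209 with TNC (log2 change -1.71, SE 0.16, adjusted p = 9.84e-06), and Tgfb2 fell from 5186 to 2960.4. Tgfb1, with 486 and 509.9, was not called. The receptors Tgfbr1 and Tgfbr3 rose from 2956 to 4472 and 1137 to 2450.2, and the inhibitory Smad6 fell from 6313 to 3888. Grem1, a secreted BMP antagonist, rose from 8940.4 to 13618.

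Leukocyte adhesion genes rose in 6 of 15 cases and fell in 5 (7 and 2 with centred arrays). The falls were 3 without unstimulated array 3, TNC array 2 or TNC array 3 and with a replicate block. Icam1, a ligand of leukocyte integrins, read 5544, 5975 and 6452 without TNC and 17316, 19148, 16856 and 16528 with TNC (log2 change 1.54, SE 0.073, adjusted p = 4.53e-08). Selp, P-selectin, best known in endothelium and platelets, read 2782, 3337 and 3223 without and 12027, 11803, 11533 and 12336 with TNC (log2 change 1.94, SE 0.075, adjusted p = 8.76e-09). The groups were apart for both, and endothelial markers rose beside Selp as given above. Sele, E-selectin, rose from 169.8 to 543. Vcam1, with 10807, 12916 and 12893 without and 11949, 13919, 14770.3 and 13048 with TNC, was not called (log2 change 0.14, SE 0.087, adjusted p = 0.267).

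Genes of dividing cells were lower. Of 29 tested mitosis genes 26 fell and 0 rose, with a median change of -1.10 (22 and 0, median -0.93, with centred arrays). Mki67, the proliferation marker, read 625, 375 and 496 without TNC and 243, 190.5, 273 and 273 with TNC (log2 change -1.01, SE 0.20, adjusted p = 0.00311). Top2a, the topoisomerase of dividing cells, read 1041, 603 and 803 and then 371, 341, 421 and 402 (log2 change -1.06, SE 0.16, adjusted p = 4.56e-04). The 2 groups did not overlap for either. Nuf2 and Ndc80, of the kinetochore, fell from 365 to 119.7 and 139 to 31.9. Ccnd1, the cyclin that admits cells to the cycle, read 5398, 5099 and 5212 without and 1304, 1075, 1410.3 and 1411 with TNC (log2 change -2.02, SE 0.16, adjusted p = 3.10e-06). DNA replication genes fell in 14 of 29 cases and rose in 3, with Mcm5 going from 467 to 182 and Rrm2 from 825 to 326. Among genes that control the cycle 7 of 23 rose and 10 fell (8 and 4 with centred arrays), with 4 rises without unstimulated array 1 or TNC array 1. Gadd45a, a stress-induced growth arrest gene, rose from 3332 to 8493.

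Cholesterol synthesis genes were lower together. Of 28 tested genes of that list 21 fell and 3 rose, with a median change of -0.63 (15 and 4, median -0.45, with centred arrays). Hmgcs1, an early enzyme of the pathway, read 6282, 4815 and 4698 without TNC and 2227, 2218, 2567 and 2555 with TNC (log2 change -1.13, SE 0.12, adjusted p = 2.48e-05). Idi1 read 1827, 1321 and 1208 without and 379, 405, 488 and 474 with TNC (log2 change -1.72, SE 0.19, adjusted p = 3.65e-05), and Cyp51 fell from 1174 to 436. No arrays overlapped for Hmgcs1 and Idi1. The rises were the exporter Abca1 (2816 to 5850.4), Insig2 (2318 to 3827), which holds the sterol sensor back, and Ch25h (128 to 1673), which makes an oxysterol that represses the pathway. Insig1, a target of the sterol-sensing SREBP factors, fell from 1967 to 1031.

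Glycolysis and hypoxia genes rose in 19 of 28 cases and fell in 2, with a median change of 0.38. Hk2, which traps glucose in the cell, read 629, 633 and 567 without TNC and 1729, 1951, 2014 and 1724 with TNC (log2 change 1.60, SE 0.10, adjusted p = 3.74e-07). Pfkfb3, which speeds glycolysis, read 625, 483 and 443 without and 1622, 1629.8, 1891 and 1885 with TNC (log2 change 1.78, SE 0.15, adjusted p = 6.29e-06). Neither overlapped between groups. The hypoxia factor Hif1a rose from 11499.8 to 18996 and its target Adm from 1080.2 to 4957.

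Stress genes of the endoplasmic reticulum and of amino acid shortage rose in 22 of 34 cases and fell in 0, with a median change of 0.64. The rises were 31 with centred arrays, 16 with a replicate block and 15 without unstimulated array 2 or unstimulated array 3. Ddit3, the stress factor CHOP, read 1646, 1296 and 1457 without TNC and 3138, 8282, 5968 and 4079 with TNC (log2 change 1.78, SE 0.32, adjusted p = 0.0013). Herpud1, of the degradation machinery, rose from 2173 to 4556, and Atf4, the factor translated under stress, from 5574 to 10283, as did its targets Chac1 (886 to 2282), Trib3 (797 to 2029.9) and Asns (2421 to 4817). Among antioxidant and metal genes 14 of 27 rose and 5 fell. Sod2, the mitochondrial superoxide dismutase, read 2942, 2890.1 and 2858 without and 13368, 14074, 13068 and 13524 with TNC (log2 change 2.22, SE 0.052, adjusted p = 1.50e-10), and the metallothionein Mt2 rose from 4939 to 16312. Arg2, the mitochondrial arginase, read 30.6, 10.2 and 2.65 without and 853, 771, 669 and 849.7 with TNC (log2 change 6.38, SE 0.59, adjusted p = 1.16e-05). Of 18 prostanoid genes 4 rose, including the inducible cyclooxygenase Ptgs2 (1009 to 3289), and 3 fell, including the prostacyclin synthase Ptgis (5499.8 to 3394).

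Interferon-stimulated genes, whose products block viruses, gave 10 rises and 8 falls among 43 (14 and 6 with centred arrays). Of all genes 16% rose and 15.5% fell, and the interferon list is not set apart here. Ifit3 read 2585, 1689 and 2120.1 without TNC and 548, 1035, 859.6 and 647 with TNC (log2 change -1.49, SE 0.23, adjusted p = 4.84e-04). Its TNC arrays were lower than every control, and Irgm1, a GTPase that targets bacteria, fell from 2122 to 1334. The receptor chain Ifnar2 rose from 2337 to 5895 and Irf1 from 788 to 1424. Of 18 antigen presentation genes 10 rose, among them H2-K1 (8532 to 17897) and H2-D1 (7659.9 to 14486), and 1 fell (0 without unstimulated array 1, 2 without TNC array 4).

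**Figure D3:**
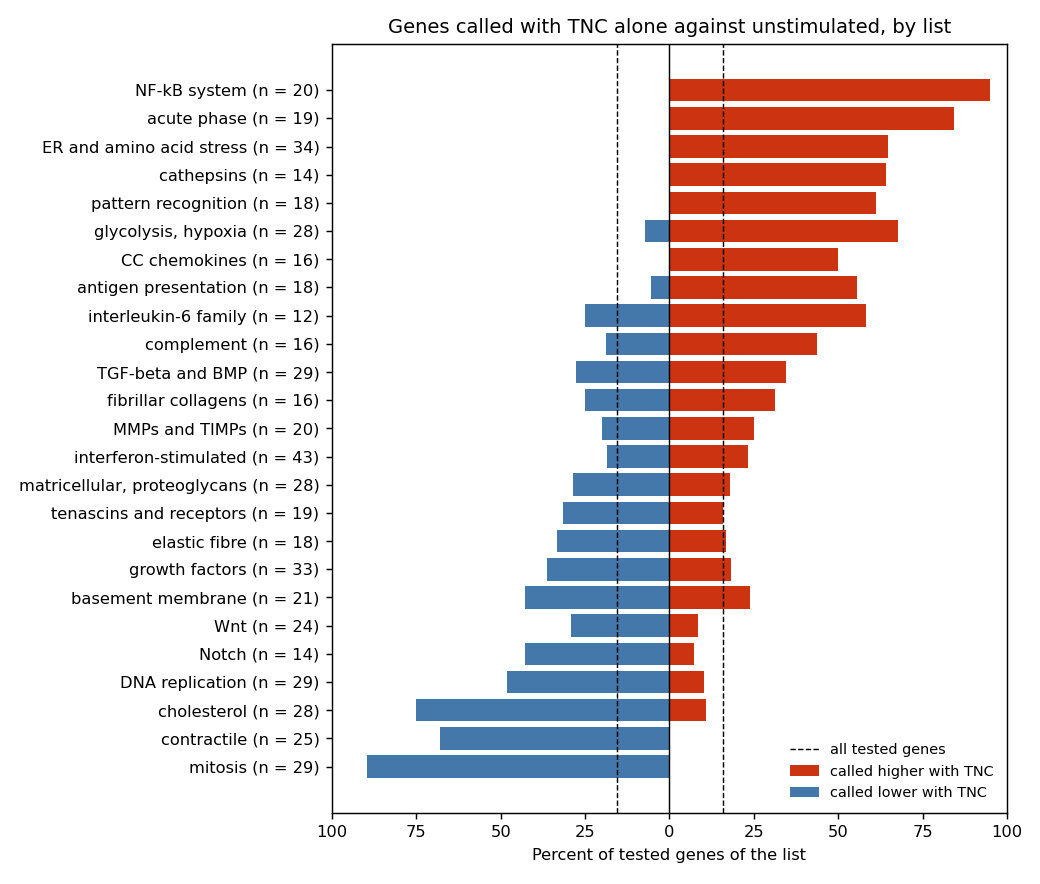
Number of tested genes called higher (right, from 0) and lower (left, from 0) with TNC in each gene list, as a percent of the list's tested genes. Bars show percent called and the dashed lines the 16% and 15.5% of all tested genes called higher and lower. NF-kB and acute phase genes are the lists with the highest percent of rises, mitosis and cholesterol genes those with the highest percent of falls among lists with at least 10 tested genes. The lists were chosen with earlier results of these data known.

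Several of the largest changes belong to none of these groups. Tnfrsf9, the T cell costimulator CD137, read 25.3, 45.9 and 11.7 without TNC and 1086, 1035, 976 and 748 with TNC (log2 change 5.32, SE 0.34, adjusted p = 5.96e-07). Lrg1, a secreted glycoprotein that modifies TGF-beta signals in vessels, read 118, 152 and 107 without and 2710.2, 2377, 2400.4 and 2524 with TNC (log2 change 4.33, SE 0.13, adjusted p = 1.43e-09). Lgi2, a secreted leucine-rich repeat protein, rose from 13.2 to 643. These 3 were among the 20 largest rises. Among the 20 largest falls, Dsp, desmoplakin, which anchors desmosomes, read 802, 967 and 893 without and 93.1, 103, 128 and 126 with TNC (log2 change -2.99, SE 0.18, adjusted p = 3.00e-07). Sema3e, a guidance cue for vessels, read 5856, 6501 and 6169 without and 1074, 1218, 1168 and 1206 with TNC (log2 change -2.41, SE 0.091, adjusted p = 7.26e-09). Lmo7, an adaptor with a LIM domain, fell from 1049.7 to 84.5, Fat4, a giant cadherin, from 1819 to 236, Ecrg4, a secreted peptide precursor, from 4864 to 609, and Cthrc1, a secreted protein of injured arteries, from 3151 to 657. Pgr, the progesterone receptor, fell from 674 to 129, the calcium binder S100b from 676 to 92.2, Aldh1a7, an aldehyde dehydrogenase, from 591 to 64.8, and Angptl1 from 1451 to 281. All 40 genes of the 2 rankings kept their call and direction under every alternative setting that was run.

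In the AP-1 and MAP kinase feedback list 14 of 30 rose and 4 fell. Ier3, a survival gene, read 2798, 3067 and 3072 without TNC and 15079, 15681, 15325 and 14595 with TNC (log2 change 2.35, SE 0.062, adjusted p = 4.98e-10), and Junb, Myc and Dusp6 rose from 651 to 1950.3, 543 to 1578 and 1039 to 2890.5. The 4 falls of the list became 2 with centred arrays and with a replicate block. Leaving out 1 array gave 1 fall without unstimulated array 1, 3 without unstimulated array 2 and 2 without any one of the other 5, with 10 to 13 rises.

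TNC alone was then compared with TNF alone, which asks where the response to the matrix protein differs from that to the classic cytokine. Both were also compared with the same 3 unstimulated arrays, so their changes share those values, and only the direct difference between the 4 TNC and the 3 TNF arrays was tested. That test called 4439 genes, 28.4% of those tested, of which 2809 (18%) were higher and 1630 (10.4%) lower with TNC. The median difference of all tested genes was 0.046.

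Interferon genes showed the clearest contrast. Of 43 tested members 38 were lower with TNC than with TNF and 1 was higher, with a median difference of -2.69. Rsad2, the antiviral protein viperin, read 321, 117 and 167 unstimulated, 68.1, 84.5, 40.4 and 70.7 with TNC and 8249, 8679.6 and 8835 with TNF (difference -7.07, SE 0.32, adjusted p = 2.85e-08). The TNC arrays were the lowest of the 3 groups. Of 18 antigen presentation genes 15 were lower with TNC than with TNF. Psmb8, an immunoproteasome subunit, read 499, 399 and 448 unstimulated, 719, 742, 822 and 750.0 with TNC and 8662, 8855 and 8546 with TNF (difference -3.52, SE 0.085, adjusted p = 4.36e-10). NF-kB genes were mostly higher with TNF: 13 of 20 were lower with TNC than with TNF, including Tnfaip3 (difference -1.78, SE 0.11, adjusted p = 4.93e-07), and 3 were higher, which were Nfkbiz (difference 1.79, SE 0.10, adjusted p = 1.41e-07), Zc3h12a (difference 2.25, SE 0.14, adjusted p = 4.36e-07) and Map3k8 (difference 1.87, SE 0.14, adjusted p = 2.30e-06).

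Acute phase genes ran the other way, with 13 of 19 higher with TNC than with TNF and 1 lower. Lcn2 read 2025, 2965 and 2683 with TNF against the TNC values given above (difference 3.23, SE 0.12, adjusted p = 7.38e-09). Cebpd read 5969, 6122 and 5858 with TNF (difference 1.12, SE 0.045, adjusted p = 1.40e-08), below every TNC array. Steap4, a metalloreductase of inflamed tissue, read 87.3, 31.4 and 40.4 unstimulated, 679, 835, 829 and 651 with TNC and 34.5, 114 and 167 with TNF (difference 3.10, SE 0.51, adjusted p = 8.53e-04). Its TNC arrays lay above all others.

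For 3 of the strong responses to TNC the TNF arrays were far lower. Csf3 read 4.81, 31.6 and 9.72 with TNF (difference 5.26, SE 0.52, adjusted p = 2.18e-05), close to the unstimulated arrays. Vnn3, a pantetheinase of the vanin family, read 11.3, 12.4 and 23.3 unstimulated, 669, 719, 515 and 684 with TNC and 8.38, 9.09 and 45.9 with TNF (difference 5.40, SE 0.50, adjusted p = 1.13e-05). Cd14 read 158, 159 and 201 with TNF (difference 3.02, SE 0.20, adjusted p = 5.87e-07). All 3 genes were apart between the TNC and TNF arrays. Mmp3 was higher with TNC, with 3262, 4183 and 3861 in the TNF arrays (difference 2.30, SE 0.14, adjusted p = 4.18e-07), and Mmp11 read 841, 834 and 907 with TNF (difference 2.28, SE 0.21, adjusted p = 9.47e-06).

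**Figure D4:**
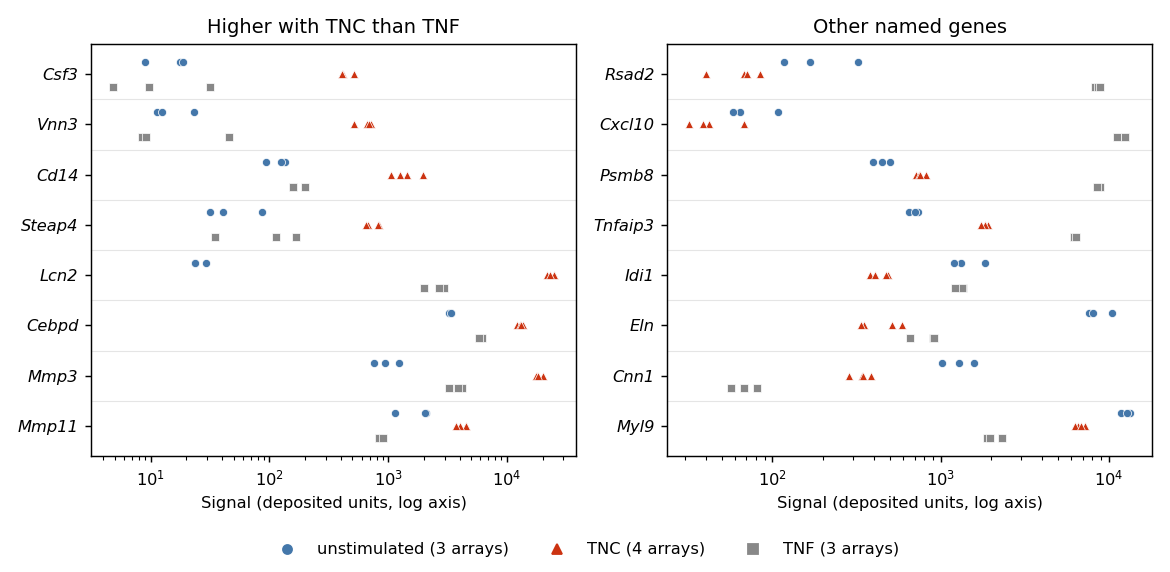
Signal on a log axis in each unstimulated (circles), TNC (triangles) and TNF array (squares) for genes that the comparison of TNC with TNF names. Each mark is 1 array. Of the groups shown, the 4 TNC arrays are the highest for Csf3, Vnn3 and Cd14, and the 3 TNF arrays for Rsad2, Cxcl10 and Psmb8.

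Elastin was low under both. Eln read 655, 898 and 919 with TNF, and the 4 TNC arrays were lower still (difference -0.91, SE 0.23, adjusted p = 0.0123; adjusted p = 0.0520 without TNF array 3). Sost read 35.0, 39.2 and 24.0 with TNF, overlapping the TNC arrays. Contractile genes were higher with TNC than with TNF in 13 of 25 cases and lower in 4. Cnn1 read 80.8, 56.6 and 67.8 with TNF (difference 2.32, SE 0.38, adjusted p = 9.24e-04) and Myl9 read 2329, 1881 and 1955 (difference 1.71, SE 0.082, adjusted p = 4.42e-08), each below every TNC array. Cholesterol genes were lower with TNC in 21 of 28 cases and higher in 1. Idi1 read 1353, 1348 and 1222 with TNF (difference -1.59, SE 0.19, adjusted p = 7.38e-05), above every TNC array. Mitosis genes were lower with TNC in 15 of 29 cases and higher in 0, and ER stress genes higher in 14 of 34 and lower in 0.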

How the data were processed

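RNA of cultured mouse aortic smooth muscle cells was hybridised to whole-genome Affymetrix arrays. The authors deposited intensity values, not logged, of 45101 probe sets, made in Affymetrix Expression Console per the submitters' processing notes. Its version and algorithm are unknown here. The middle 96% of values average 500.0 on each cell array while the medians differ (61.63 to 64.61 unstimulated, 54.37 to 58.14 with TNC), so a common scale had been set. No detection calls or scan dates were used here.

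Values were taken to log2 as they stand. Control probe sets (64), those with several symbols (932) and unnamed ones (9160) were left out, and the brightest probe set over the 22 arrays stood for each of 18193 genes. A gene was tested if at or above the 30th percentile in at least 3 of the 14 cell arrays, which left 15636. One limma 3.58.1 model (R 4.3.3, lmFit and eBayes, 10 residual degrees of freedom) held all 4 groups of cells, two-sided, with Benjamini-Hochberg adjustment. The code was tested on simulated data. The precision is limited by the number of arrays.

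Named genes are Tnc, the 20 largest called rises and falls with no overlap and a group mean of at least 500, and members of gene lists. Array values are given for up to 6 called members of a list by size of change and for contractile, tenascin and marker genes. Array values of Cebpd, Col1a2, Col3a1, Csf3, Cxcl10, Il1b, Lox, Mki67, Mmp2, Myocd, Rsad2 and Vcam1 fall outside this rule and were chosen after their values were seen. The members and lists were chosen with earlier results of these data known.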

Additional observations from a re-analysis of the deposited data

Results flagged for a closer look

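Of 230 named genes, 16 had 1 of the 4 TNC arrays far from the other 3 by Dixon's test, which chance alone flags in about 1 group of 20. The TNC array 1 was the one apart in 7 of them. It was the lowest for Hey2 (403.7), Igf1 (947.6), Itga9 (147.8), Itgav (8130) and Myocd (1.53) and the highest for Col10a1 (327.6) and Itgb3 (823.2). TNC array 2 was the lowest for Adamts15 (27.2), Gucy1b1 (167.5) and Ndc80 (9.17). TNC array 3 was the highest for C1ra (6103), Csf3 (517.1), Il18 (189.0) and Socs3 (3986), and TNC array 4 for Pgr (161.3) and Plod2 (6639). For Igf1 and Plod2 the whole range over the 4 arrays was 0.0954 and 0.0379 on the log2 scale. The widest ranges were those of Myocd (4.42) and Ndc80 (2.58), both dim with TNC.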

How the results depend on the processing

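The count of genes called with TNC (4926) stayed within 1.5 times under every alternative but 1: with every named probe set tested on its own, 7660 probe sets were called, 4024 of them lower, and the count against TNF went from 4439 to 6840, because more features were tested. Centring each array on its median gave 3977 rises and 1238 falls. Leaving out 1 array gave 3970 to 4656 calls, with 2041 to 2360 rises and 1879 to 2296 falls, and 3460 to 4208 calls against TNF. Arrays with the same replicate number correlated at -0.00568 to 0.0124 across TNC and unstimulated cells after group means were removed. These 3 pairs gave no sign of pairing by number and are too few to settle it. A replicate block gave 4294 calls (2176 rises, 2118 falls) and 3917 against TNF, and a random block for culture 4919 and 4438.

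Of 4368 refits of the 230 named genes 4324 kept direction and call. The other 44 were 4 lost calls (Tagln and Itgb3, given above), 23 gained calls and 17 changes of sign, all 17 in genes not called. With arrays centred on their medians the log2 change was 0.028 for Acta2, 0.12 for Cald1, 0.16 for Col3a1, 0.024 for Flna, 0.058 for Hspb8, 0.012 for Itgav, 0.11 for Lox, 0.078 for Tnc and 0.046 for Tnxb, and Bgn, Col1a2, Fn1, Tgfb1 and Vcam1 were called higher. With quantile normalization it was 0.012 for Tnc and 0.012 for Tnxb. Leaving out 1 array gave -0.050 to 0.034 for Col3a1, -0.23 to 0.033 for Tnc and -1.19 to 0.046 for Tnn. The call of Eln against TNF was lost without TNF array 3, as given above. The median changes of the complement, prostanoid, elastic fibre, fibrillar collagen, matricellular, tenascin and contractile regulator lists took the other sign with centred arrays. Those of the TGF-beta, growth factor, cycle control, interferon, Notch and fatty acid lists did so too. All these lists are given by counts, which moved as well with centred arrays, except those of complement. The cause was not tested. Dim genes vary most, and values near background have no order.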

Other observations

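Genes of cell death and the inflammasome, which processes interleukin-1, rose in 7 of 17 tested cases with TNC and fell in 1. Casp4, the caspase that senses lipopolysaccharide inside the cell, read 400.1, 451 and 432 in the unstimulated arrays and 3004, 3204, 2868 and 3045 in the TNC arrays (log2 change 2.83, SE 0.084, adjusted p = 1.22e-09 in limma's fit), with no overlap. The death receptor Fas rose from a mean of 1877 to 3852. Genes that burn fatty acids fell in 6 of 19 cases and rose in 1 (3 and 1 with arrays centred on their medians). Cpt1a, which admits fatty acids to mitochondria, read 2568, 2781 and 2693 without and 1185, 1015, 1717 and 1954 with TNC (log2 change -0.92, SE 0.22, adjusted p = 0.00887), and these arrays did not overlap either. Among clock genes 4 of 17 rose and 3 fell, against 16% and 15.5% of all genes. These were 3 and 5 with quantile normalization, and 4 and 6 of 14 with a filter at the 50th percentile. The repressors Nfil3 and Bhlhe40 rose from means of 412 to 1368 and 1907 to 3469, and the activator Tef fell from 1710.1 to 1002.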
